A study of Rattus norvegicus with 28 samples.

Results

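The genes described here are 10 transcripts of the hypoxia response and of glucose breakdown, followed in the terminal ileum of newborn rats: Hif1a, Egln3, Cited2, Vegfa, P4ha1, Pdk1, Hk1, Hk2, Aldoa and Eno1. They were chosen by name, as all probe sets whose gene symbol in the array's platform annotation is one of the 10. This gave 22 of the 8799 probe sets on the array, 3 of them hexokinase control probe sets left out of the tests. All 10 genes had at least 1 probe set bright enough to test, and the brightest probe set of each gene, which is the one tested, is meant below unless another is named. The samples come from a rat model of necrotizing enterocolitis, in which the gut wall of newborns, mostly preterm, becomes inflamed and can die. Pups were breast-fed, or were formula-fed and exposed to hypoxic stress 3 times a day, and were killed on day 1, 2, 3 or 4 of life, with 3 pups per regimen and day. A further group of 4 pups was newborn and had not been fed. Each pup's ileum was kept in a preservative and hybridised to an individual array, 28 arrays in all. Strain, sex, oxygen level and litter are not given in the labels, and no group received formula without hypoxia or hypoxia without formula, so the effects of these cannot be told apart.

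Cells sense oxygen through prolyl hydroxylases, enzymes that mark the HIF alpha proteins for destruction as long as oxygen is present. When oxygen falls, HIF-1 alpha, the product of Hif1a, escapes this marking, pairs with a beta subunit and binds short DNA motifs near its target genes. Much of the control of HIF-1 alpha therefore acts on the protein and not on the Hif1a transcript. Targets include Vegfa, which drives vessel growth, Egln3, which encodes one of the prolyl hydroxylases, and most enzymes of glycolysis. The newborn ileum is also changing with age, as milk feeding starts and the wall thickens.

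The arrays were of unequal quality. In replicate 3 of breast-fed day 3 and replicate 2 of breast-fed day 4, 69 and 48 otherwise abundant probe sets had lost their signal, against 0 to 2 in the other arrays. The 3′ to 5′ ratio of the actin control probes, which rises as RNA degrades, was 4.17 in formula and hypoxia day 1 replicate 2 and 0.970 to 2.42 elsewhere. By accession number the arrays fall into a pair of runs, of 19 and 9, and run 2 held unfed replicates 2 to 4, replicate 2 of breast-fed day 1, replicate 3 of breast-fed day 3, replicates 1 to 3 of breast-fed day 4 and replicate 3 of formula and hypoxia day 4. Of 12 ileal enterocyte markers, 11 were tested, and the bile acid binding protein gene Fabp6, which marks the ileum, had a mean signal of 970 (Vil1 was not on the array). In such bulk tissue, fewer cells of a type and less RNA per cell cannot be told apart. Signals below are quantile normalised intensities, which compare arrays for 1 probe set but not the levels of different genes. Differences are on the scale log2(signal + 8), so they understate the change of dim probe sets. A gene was called at an adjusted p under 0.05 in limma, with adjustment over all 3185 genes tested.

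Between the regimens, only P4ha1 among the 10 genes was called. Over the mean of days 1 to 4 it was lower under formula and hypoxia, and the other 9 genes did not pass. This is 1 of 10 genes, where 11.4% of all genes tested were called and 6.75% were called lower. The median difference of the 10 genes was 0.02 on the log2 scale, and that of all genes was also 0.02. On single days 0 of the 10 were called in limma, where 0.283%, 1.48%, 2.01% and 1.98% of all genes were called on days 1 to 4. At an unadjusted p under 0.05, 1, 0, 0 and 2 of the 10 passed on those days, against 9.14%, 10.2%, 16.6% and 15% of all genes. From day 1 to day 4 of formula and hypoxia, by contrast, the glycolytic genes Aldoa and Eno1 rose, which is 2 of 10 genes where 13.4% of all genes were called and 6.62% were called higher.

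**Figure D1:**
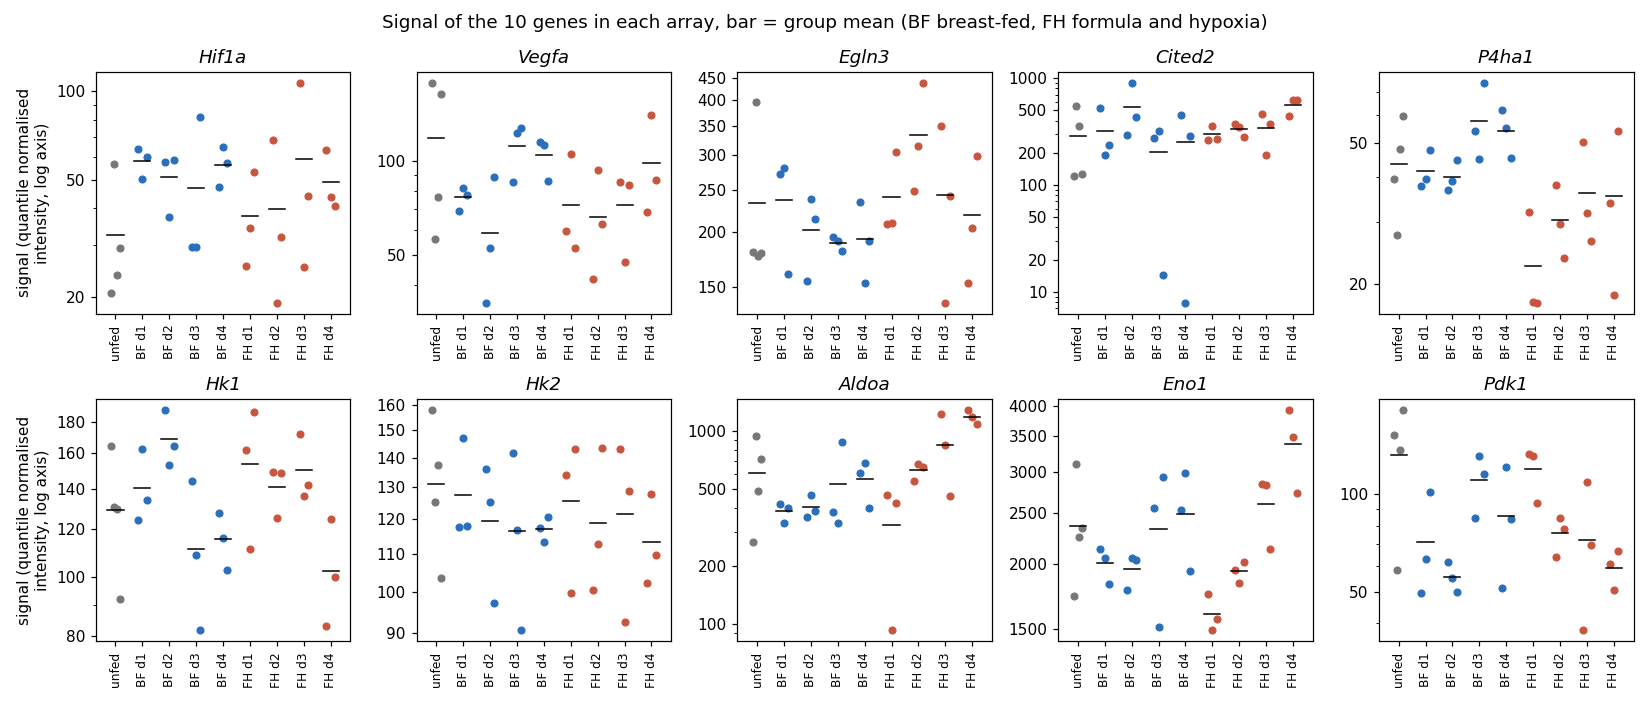
Signal of the tested probe set of each of the 10 genes in all 28 arrays (vertical axis, quantile normalised intensity on a log scale with its own range in each panel), by group (horizontal axis; BF breast-fed, FH formula and hypoxia, d the day of life). Each point is 1 array and each bar a group mean; the 3 FH d4 arrays of Aldoa lie above all breast-fed and unfed arrays, a pair of the FH d4 arrays of Eno1 lie above every other array, P4ha1 lies lower in most FH arrays, and the 2 lowest Cited2 points are the breast-fed arrays with lost probe sets.

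HIF binds a core motif written ACGTG or GCGTG, and the promoters of the 3 called genes carry these letters in capitals. Both letter runs were searched on either strand in the 250 bases before each annotated start in RefSeq (rat build GRCr8); on 1 strand neighbouring runs can share a single G, and CACGTG holds ACGTG on both strands. Of 33469 promoters 36.7% held at least 1 of the runs and 16.6% held ACGTG. The 10 genes had 15 annotated promoters, of which 8 (53.3%) held at least 1 run and 4 held ACGTG, with a median GC content of 60.4% against 51.2% for all promoters. P4ha1 has 1 annotated promoter with a pair of GCGTG runs, 136 and 99 bases before the start. Of 3 Aldoa promoters 1 holds a run, ACGTG on the minus strand of the promoter, and each of the 2 Eno1 promoters holds 1 GCGTG, also on its minus strand. A match describes the letters only, and which starts the ileum uses was not measured. The sequences run 5′ to 3′ on the strand of the gene, and capitals mark the motif letters (on the strand printed, a minus strand match reads CACGT or CACGC).
P4ha1, chr20:27844796-27845045, plus strand: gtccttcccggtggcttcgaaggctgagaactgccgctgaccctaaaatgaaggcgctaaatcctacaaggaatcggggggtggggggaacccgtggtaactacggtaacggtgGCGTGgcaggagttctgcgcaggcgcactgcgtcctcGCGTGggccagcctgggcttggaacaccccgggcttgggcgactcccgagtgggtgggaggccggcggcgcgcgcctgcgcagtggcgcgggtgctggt
Aldoa, chr1:190836778-190837027, minus strand: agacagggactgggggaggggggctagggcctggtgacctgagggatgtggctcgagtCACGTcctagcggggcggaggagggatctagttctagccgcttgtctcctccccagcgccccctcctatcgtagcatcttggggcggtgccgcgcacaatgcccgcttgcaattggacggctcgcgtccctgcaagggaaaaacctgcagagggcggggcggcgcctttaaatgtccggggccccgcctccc
Eno1, chr5:166003111-166003360, plus strand: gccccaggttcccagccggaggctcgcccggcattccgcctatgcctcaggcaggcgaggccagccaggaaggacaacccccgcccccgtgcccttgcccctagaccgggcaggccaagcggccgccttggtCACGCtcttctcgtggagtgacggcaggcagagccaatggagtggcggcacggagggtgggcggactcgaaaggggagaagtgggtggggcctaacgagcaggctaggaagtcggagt

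Among the regulators, Hif1a, which encodes the oxygen-regulated alpha subunit of HIF-1, gave signals of 20.6, 56.6, 23.8 and 29.3 in the 4 unfed pups. Among breast-fed pups day 1 gave 63.6, 50.4 and 59.9, day 2 gave 57.4, 37.3 and 58.2, day 3 gave 29.6, 29.5 and 81.8 and day 4 gave 47.2, 64.9 and 57.0. With formula and hypoxia day 1 gave 25.5, 34.2 and 53.4, day 2 gave 68.5, 19.1 and 31.9, day 3 gave 107, 25.3 and 43.9 and day 4 gave 63.0, 43.6 and 40.6. The regimens overlapped on every day, and the highest single signal was in formula and hypoxia day 3 replicate 1. The regimen difference was -0.24 (SE 0.21, 95% confidence interval -0.67 to 0.19), with an adjusted p of 0.499 in limma and 8 of 12 arrays under formula and hypoxia below the breast-fed mean of their day. Breast-fed day 1 exceeded the unfed pups by 0.77 (SE 0.39, adjusted p = 0.838 in limma) and the groups overlapped.

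Egln3, a prolyl hydroxylase that tags HIF alpha and is itself a known HIF target, was measured by a pair of probe sets. The tested one read 179.9, 396, 176 and 179 in unfed pups, so that 1 unfed pup was far above the other 3. In breast-fed pups the day 1 signals were 271, 280.1 and 161, day 2 gave 155, 238 and 215, day 3 gave 195, 191 and 181 and day 4 gave 234, 153 and 191. For formula and hypoxia the day 1 signals were 209, 210.4 and 304, day 2 gave 248, 315 and 438, day 3 gave 350.2, 138 and 241 and day 4 gave 153, 204 and 298. The groups overlapped on days 1, 3 and 4 and did not overlap on day 2, where 21.3% of all genes did not overlap either. The difference on day 2 was 0.68 (SE 0.34, 95% interval -0.02 to 1.39, adjusted p = 0.510 in limma), and the mean over days was 0.28 (SE 0.17, adjusted p = 0.307). The second probe set gave 0.13 on day 2 and 0.01 over the mean of days.

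Cited2, whose protein competes with HIF-1 alpha for the coactivators CBP and p300 and is itself induced by hypoxia, had the widest spread of the 10 genes. Unfed pups gave 119.9, 542, 356 and 127. Breast-fed ileum on day 1 gave 527, 189 and 238, day 2 gave 290.4, 899 and 432, day 3 gave 276, 320.1 and 14.4 and day 4 gave 455, 7.88 and 287. Ileum exposed to formula and hypoxia gave 262, 359 and 269 on day 1, day 2 gave 374, 351 and 279, day 3 gave 463, 191 and 373 and day 4 gave 443, 627 and 621. The lowest values, 14.4 and 7.88, belonged to the breast-fed arrays that had lost probe sets. The day 4 difference was 2.12 (SE 0.92, adjusted p = 0.251 in limma) with all arrays and 0.61 without these 2 arrays, and the mean over days was 0.75 (SE 0.46, adjusted p = 0.312) and 0.05 without them. From day 1 to day 4 of formula and hypoxia the tested probe set differed by 0.90 (SE 0.92, adjusted p = 0.573), with no overlap between the days, where 33.2% of all genes did not overlap. The other probe sets differed by 1.35 (adjusted p = 0.172) and 2.78 (adjusted p = 0.0348) in a limma fit of all 8740 probe sets without a filter, where 5.51% were called; the second of these calls was lost on leaving out any 1 of the 6 arrays, and its size depends on the pseudocount, from 1.62 to 3.59 for pseudocounts of 32 and 2. The latter, too dim for the main test, read 4.10, 4.28 and 5.62 on day 1 and 37.2, 117 and 107 on day 4, but also 119, 25.1 and 4.32 in breast-fed pups on day 4, so the regimens overlapped.

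Among the targets outside glycolysis, Vegfa, the vascular endothelial growth factor, was not called in any comparison. Unfed pups gave 179, 56.2, 76.5 and 165. Among breast-fed pups day 1 gave 69.2, 82.1 and 77.9, day 2 gave 34.9, 52.6 and 88.8, day 3 gave 86.0, 123 and 128 and day 4 gave 115, 112 and 86.2. With formula and hypoxia day 1 gave 59.4, 105 and 52.5, day 2 gave 41.9, 93.8 and 62.8, day 3 gave 85.9, 47.3 and 84.1 and day 4 gave 68.6, 140.4 and 86.9. Only on day 3 did the regimens not overlap, with the formula and hypoxia pups lower by 0.60 on the log2 scale, where 19.2% of all genes did not overlap. That difference of -0.60 had an SE of 0.38 and an adjusted p of 0.428 in limma, and the mean over days was -0.17 (SE 0.19, 95% interval -0.56 to 0.22, adjusted p = 0.598). The other 3 Vegfa probe sets had mean signals of 28.9, 14.6 and 7.10. The first of them passed the filter. Its differences were positive, against negative ones of the tested probe set, on days 1 and 3 and over the mean of days. They were 0.99 on day 3 (SE 0.56, adjusted p = 0.463 in the limma fit of all probe sets) and 0.37 over the mean of days (SE 0.28, adjusted p = 0.511). On day 2 both probe sets had positive differences and on day 4 both had negative ones.

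P4ha1 encodes the catalytic subunit of the collagen prolyl hydroxylase, which needs oxygen to make the hydroxyproline that stabilises the collagen helix, and is a known HIF-1 target. Unfed pups gave 39.5, 27.4, 48.0 and 59.8. In breast-fed pups the day 1 signals were 37.8, 39.7 and 47.8, day 2 gave 37.0, 39.0 and 44.7, day 3 gave 54.3, 45.0 and 74.2 and day 4 gave 62.4, 55.1 and 45.4. For formula and hypoxia the day 1 signals were 31.9, 17.8 and 17.6, day 2 gave 38.1, 29.4 and 23.7, day 3 gave 50.4, 31.8 and 26.5 and day 4 gave 33.8, 18.5 and 54.4. All 3 formula and hypoxia pups of day 1 lay below all breast-fed pups of that day, where 13.8% of all genes did not overlap, while the regimens overlapped on days 2 to 4. The highest P4ha1 signal of the 28 arrays, 74.2, was in breast-fed day 3 replicate 3, which had lost probe sets. The other such array, breast-fed day 4 replicate 2, read 55.1.

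Over all days the mean P4ha1 signal was 31.1 ± 11.9 (SD, n = 12) under formula and hypoxia and 48.5 ± 11.2 (SD, n = 12) in breast-fed pups. On the log2 scale the level was lower by 0.56 (difference -0.56, SE 0.15, 95% interval -0.87 to -0.26, adjusted p = 0.0132 in limma). As a ratio of signal plus 8, the level was 1.48-fold lower (1.20 to 1.83). In 11 of 12 arrays under formula and hypoxia it was below the breast-fed mean of the day. The daily differences were -0.74, -0.34, -0.59 and -0.59 on days 1 to 4, and the limma F test of any difference between them gave an adjusted p of 0.981. The call was lost with the deposited scaling (-0.48, adjusted p = 0.0600) and with the accession run in the model (-0.45, adjusted p = 0.0983). Within run 1 the call was also lost (-0.50, adjusted p = 0.112). P4ha1 was among the dimmer genes, as only 15.9% of the genes tested had a lower mean level. The size of its difference depends on the setting, from -0.66 to -0.36 over 11 alternative settings.

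Some matrix markers were also lower. Of 7 fibroblast and matrix markers, 4 were called lower under formula and hypoxia over the mean of days and 0 were called higher in limma, where 6.75% of all genes were called lower: Lum at -1.54, Postn at -1.44, Serpinh1, a collagen chaperone, at -0.89, and Dcn at -0.85. The 3 collagen genes were not called, with Col1a1 at -0.60 (adjusted p = 0.115 in limma), Col1a2 at -0.44 (adjusted p = 0.129) and Col3a1 at 0.22 (adjusted p = 0.672). The summed signal of the 7 ranged from 1867 to 5234 under formula and hypoxia and from 3599 to 8057 in breast-fed pups. The part of this shift in the P4ha1 difference was not tested. Both goblet cell markers were called lower. Of 9 red cell markers listed 4 were tested, all with positive differences, and 3 were called higher, where 149 of 3185 genes were. Of 6 macrophage and granulocyte markers tested, 1 was called higher and 1 lower. For exocrine pancreas 1 of 3 tested was called higher, and for liver 1 of 2 was called lower. Over the 28 arrays the genes most like P4ha1 in level were Parp2 (Pearson r = 0.72), Anp32a (0.68) and Gorasp1 (0.66), given as a description of arrays that share groups and normalisation.

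Pdk1, the pyruvate dehydrogenase kinase that diverts pyruvate away from the mitochondrion, had positive regimen differences on days 1 and 2 and negative ones on days 3 and 4. Unfed pups gave 153, 58.2, 137 and 182. Breast-fed ileum on day 1 gave 49.6, 63.3 and 101, day 2 gave 61.6, 55.2 and 49.8, day 3 gave 84.4, 131 and 115 and day 4 gave 51.2, 122 and 83.9. Ileum exposed to formula and hypoxia gave 133, 131 and 93.9 on day 1, day 2 gave 64.1, 84.6 and 78.1, day 3 gave 38.0, 109 and 69.8 and day 4 gave 60.7, 50.4 and 67.0. The daily differences were 0.72, 0.39, -0.64 and -0.41, with an SE of 0.35 each, and only on day 2 did the regimens not overlap, as for 21.3% of all genes. The limma F test of any change of the regimen difference over days gave an adjusted p of 0.604, and 0 of the 10 genes were called in it (1 at an unadjusted p under 0.05), where 0.0942% of all genes were called and 7.41% had an unadjusted p under 0.05. Within formula and hypoxia, Pdk1 differed by -0.91 (SE 0.35, 95% interval -1.64 to -0.19, adjusted p = 0.0874 in limma) between day 4 and day 1 and the days did not overlap, where 33.2% of all genes did not. The same difference was 0.22 in breast-fed pups (SE 0.35, adjusted p = 0.813).

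**Figure D2:**
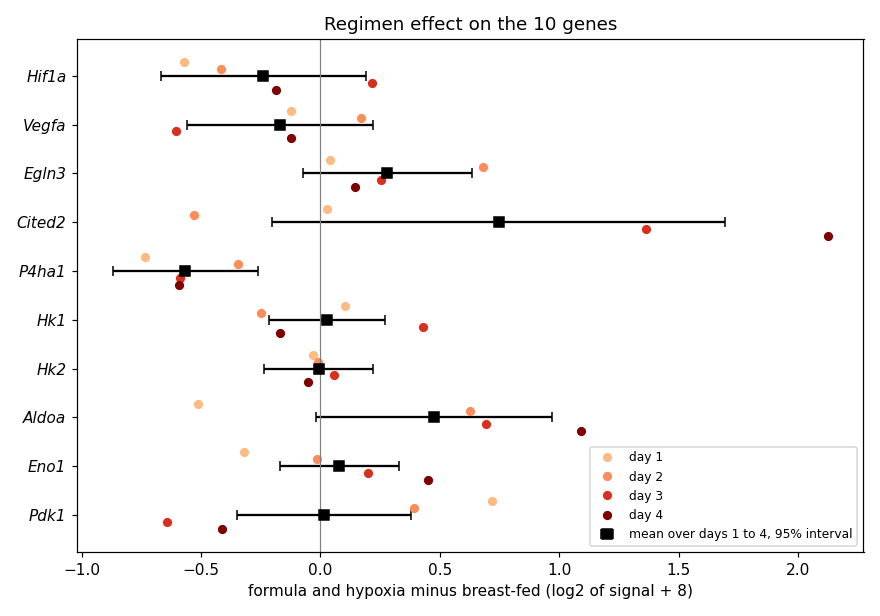
Difference between formula and hypoxia and breast feeding for each of the 10 genes (horizontal axis, log2 of signal plus 8; vertical axis, gene). Black squares are means over days 1 to 4 with 95% intervals and coloured points the daily differences of 3 against 3 pups; the interval of P4ha1 alone lies wholly below 0, and the daily points of Aldoa and Cited2 reach 1.09 and 2.12 on day 4.

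Of the enzymes of glycolysis, the hexokinases, which trap glucose in the cell by phosphorylating it, were not called in any comparison through their tested probe sets. The tested Hk1 probe set, for the widely expressed form, read from 81.8 to 189 over the 28 arrays, with a median of 139 under formula and hypoxia and 131 in breast-fed pups. The tested Hk2 probe set, for the inducible muscle and fat form, read from 90.7 to 158, with medians of 120.3 and 118. The regimen difference was 0.03 for Hk1 (SE 0.12, 95% interval -0.21 to 0.27, adjusted p = 0.909 in limma) and -0.01 for Hk2 (SE 0.11, 95% interval -0.23 to 0.22, adjusted p = 0.973); both signs changed with the scaling of the arrays. Within groups the levels of these probe sets went up and down together (r = 0.80 for deviations from the group means, and 0.63 for the levels themselves, over 28 arrays that share a normalisation, as a description).

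Other probe sets of both hexokinase genes gave other values. The second Hk1 probe set read 40.3, 28.3 and 54.5 on day 1 and 133, 115 and 101 on day 4 of formula and hypoxia, and 58.5, 68.3 and 47.6 and 87.9, 141 and 93.3 on the same days in breast-fed pups. Its difference between day 4 and day 1 was 1.37 (SE 0.29, adjusted p = 0.00677 in the limma fit of all probe sets) under formula and hypoxia and 0.79 (SE 0.29, adjusted p = 0.231) in breast-fed pups. The tested Hk1 probe set differed by -0.54 (SE 0.24, adjusted p = 0.137) under formula and hypoxia over the same days, in the opposite direction. Without formula and hypoxia day 4 replicate 1, the second probe set's adjusted p was 0.0524. Which of the probe sets follows the Hk1 transcript was not tested.

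The dim Hk2 probe set was near the floor of the array in most pups. The suffix of its name marks probes that can match several transcripts, and a share of signal from related transcripts was not tested. The mean over days of this probe set was higher under formula and hypoxia by 0.52 (adjusted p = 0.0294 in the limma fit of all probe sets, where 5.81% were called). This call was kept in 5 of 8 alternative settings, and within run 1 the difference was 0.09 (adjusted p = 0.878). In the unfed pups, in all breast-fed pups and on days 1 and 2 of formula and hypoxia the probe set read between 2.31 and 14.4. It read 5.85, 7.80 and 28.4 on day 3 and 30.4, 49.3 and 24.1 on day 4 of formula and hypoxia, so that the 3 pups of day 4 and 1 of day 3 were above all others. On day 4 it was higher than in breast-fed pups by 1.67 (SE 0.29, adjusted p = 0.00281 in the limma fit of all probe sets, where 0.847% were called). Its change from day 1 to day 4 was 1.72 (adjusted p = 0.00143) under formula and hypoxia and -0.12 (adjusted p = 0.913) in breast-fed pups, and the difference between these changes was 1.85 (SE 0.41, adjusted p = 0.117). The size depends on the pseudocount, from 0.83 to 2.35 on day 4 for pseudocounts of 32 and 2. Within run 2, which holds the 3 breast-fed day 4 arrays but 1 of formula and hypoxia, the day 4 difference was 1.31 (adjusted p = 0.352). The bright Hk2 probe set read 102, 128 and 109 in the same day 4 pups and 117, 113 and 121 in breast-fed pups, which overlap.

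**Figure D3:**
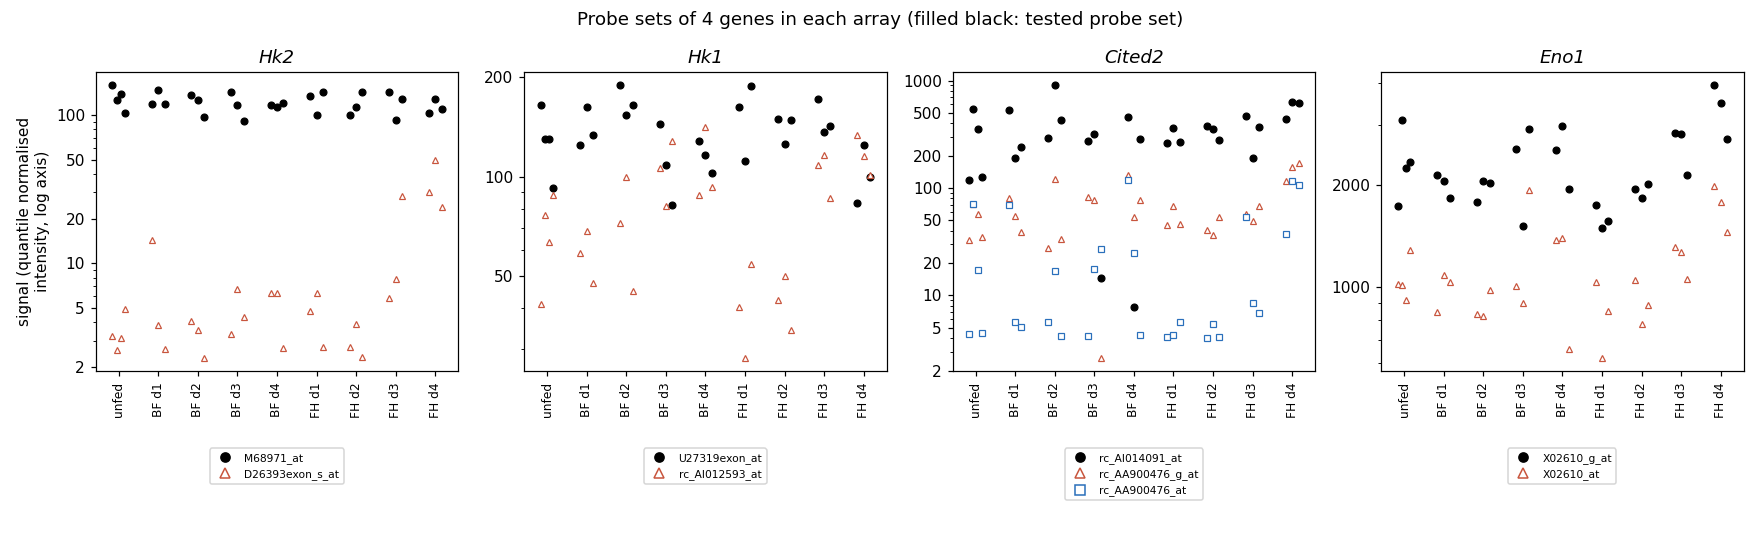
Signal of the separate probe sets of Hk2, Hk1, Cited2 and Eno1 in each array (vertical axis, quantile normalised intensity on a log scale with its own range in each panel; horizontal axis, group, with BF breast-fed, FH formula and hypoxia and d the day of life). Filled black points are the tested probe set and open symbols the others; the dim Hk2 probe set is above 24 in the 3 FH d4 arrays and 1 FH d3 array only, and both Eno1 probe sets are high in FH d4.

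Aldoa encodes aldolase A, which splits fructose bisphosphate into a pair of triose phosphates. Unfed pups gave 265, 938, 487 and 716. Among breast-fed pups day 1 gave 416, 335 and 398, day 2 gave 359, 468 and 385, day 3 gave 379, 332 and 872 and day 4 gave 603, 682 and 399.7. With formula and hypoxia day 1 gave 463, 93.0 and 421, day 2 gave 552, 676 and 652, day 3 gave 1224, 839.7 and 462 and day 4 gave 1279, 1177 and 1082. The 3 day 4 pups were above all breast-fed and unfed pups, and the lowest signal of all was that of formula and hypoxia day 1 replicate 2, the array with the high actin ratio.

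From day 1 to day 4 of formula and hypoxia, Aldoa rose by 2.12 on the log2 scale (SE 0.48, 95% interval 1.13 to 3.10, adjusted p = 0.00539 in limma), 4.33-fold (2.19 to 8.58), with no overlap between the days, where 33.2% of all genes did not overlap. Without day 1 replicate 2 the rise was 1.39 (adjusted p = 0.0414), and within run 1 it was 2.17 (adjusted p = 0.00834). In breast-fed pups the difference was 0.51 (SE 0.48, 95% interval -0.47 to 1.50, adjusted p = 0.635). Against breast-fed pups, Aldoa differed by -0.51, 0.63, 0.69 and 1.09 on days 1 to 4, and the day 4 groups did not overlap, where 21.5% of all genes did not (adjusted p = 0.253 in limma). On day 1 only replicate 2 of formula and hypoxia lay below the breast-fed pups, and the other pups of its group lay above them. The mean over days was 0.48 (SE 0.24, 95% interval -0.02 to 0.97, adjusted p = 0.203), higher than the breast-fed mean of the day in 10 of 12 arrays. Without formula and hypoxia day 1 replicate 2 it was 0.65 with an adjusted p of 0.0332. The suffix of the only Aldoa probe set marks probes that can match several transcripts, so a share of signal from related transcripts was not tested.

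Eno1 encodes alpha-enolase, which makes phosphoenolpyruvate. Unfed pups gave 1737, 3107, 2247 and 2346. In breast-fed pups the day 1 signals were 2135, 2049.7 and 1828, day 2 gave 1781, 2049.7 and 2031, day 3 gave 2554, 1513 and 2925 and day 4 gave 2536, 2986 and 1942. For formula and hypoxia the day 1 signals were 1752, 1494 and 1571, day 2 gave 1949.7, 1836 and 2019.8, day 3 gave 2839, 2825 and 2135 and day 4 gave 3929.7, 3494 and 2730.0. On day 1 all 3 formula and hypoxia pups were below the breast-fed pups, where 13.8% of all genes did not overlap, and on day 4 a pair of them exceeded every other array.

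Eno1 rose by 1.06 (SE 0.24, 95% interval 0.56 to 1.56, adjusted p = 0.00576 in limma) from day 1 to day 4 of formula and hypoxia, 2.08-fold (1.48 to 2.94), with no overlap between the days, again where 33.2% of all genes did not overlap. Within run 1 the rise was 1.25 (adjusted p = 0.00339), and with arrays scaled to a common median it was 0.70 and not called (adjusted p = 0.119). The second Eno1 probe set rose by 1.07 (SE 0.28, adjusted p = 0.0260 in the limma fit of all probe sets, and 0.0547 with the run in the model). Its call was kept in only 2 of 6 fits that each left out 1 array. Breast feeding gave 0.29 for the tested probe set (SE 0.24, 95% interval -0.21 to 0.79, adjusted p = 0.584). The daily differences from breast-fed pups were -0.32, -0.01, 0.20 and 0.45, and their mean was 0.08 (SE 0.12, adjusted p = 0.723), negative at -0.04 with a common median. Aldoa and Eno1 levels were correlated within groups (r = 0.67 for deviations from the group means, and 0.81 for the levels themselves, over the same 28 arrays, as a description).

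For Aldoa and Eno1, whether the change with age differed between the regimens was tested directly, in a contrast chosen after the values had been seen. The difference was larger under formula and hypoxia by 1.60 for Aldoa (SE 0.68, 95% interval 0.21 to 3.00, adjusted p = 0.600 in limma) and by 0.77 for Eno1 (SE 0.34, 95% interval 0.06 to 1.47, adjusted p = 0.647). The Aldoa value includes formula and hypoxia day 1 replicate 2, which read 93.0 and had the high actin ratio. Without that array the Aldoa rise under formula and hypoxia was 1.39, and the contrast without it is not given here. Of the 10 genes 0 were called in this contrast and 3 had an unadjusted p under 0.05, the third being Pdk1 at -1.13 (adjusted p = 0.632), where 0.157% of all genes were called and 7.06% had an unadjusted p under 0.05. In breast-fed pups 0 of the 10 were called from day 1 to day 4 (0 at an unadjusted p under 0.05), where 0.314% of all genes were called and 17.0% had an unadjusted p under 0.05.

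**Figure D4:**
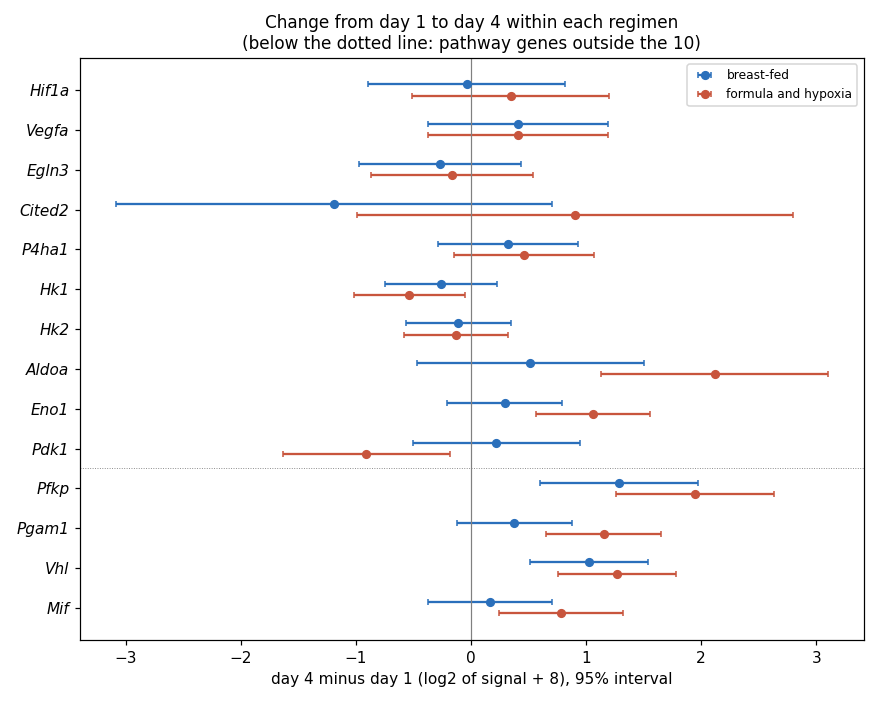
Change from day 1 to day 4 (horizontal axis, log2 of signal plus 8, with 95% intervals) within breast-fed pups (blue) and within formula and hypoxia (red), 3 pups on each day, for the 10 genes and, below the dotted line, 4 other genes of the hypoxia and glycolysis lists (vertical axis). Under formula and hypoxia Aldoa reached 2.12, Eno1 1.06 and Pfkp 1.95, against 0.51, 0.29 and 1.28 in breast-fed pups.

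Beyond the 10, a few other genes of these pathways rose with age under formula and hypoxia. Of 36 other glycolysis genes listed, 28 were on the array and 19 were tested, and of 47 other hypoxia response genes 29 were on the array and 21 were tested. From day 1 to day 4 of formula and hypoxia 2 of 19 and 2 of 21 rose in limma and 0 fell, where 13.4% of all genes were called and 6.62% were called higher; in each other comparison 0 of either list were called. The regimen effect over the mean of days had 3 of 19 and 3 of 21 genes at an unadjusted p under 0.05, against 26.8% of all genes. The median change from day 1 to day 4 of formula and hypoxia was 0.21 for glycolysis, 0.24 for the hypoxia response, 0.38 for the 10 genes and -0.00 for all genes tested.

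Pfkp, the platelet form of phosphofructokinase, went from 68.5, 65.7 and 51.1 on day 1 to 345, 207 and 244 on day 4 of formula and hypoxia, a rise of 1.95 (SE 0.33, adjusted p = 0.00109 in limma). In breast-fed pups it went from 103, 99.7 and 90.2 to 164, 409 and 227, a difference of 1.28 (adjusted p = 0.0964), so that the day 4 pups of both regimens overlapped. Pgam1, phosphoglycerate mutase, went from 1386, 1195 and 1134 to 3664, 2395 and 2378 under formula and hypoxia, a rise of 1.15 (SE 0.24, adjusted p = 0.00318, and 0.0728 with a common median). Its breast-fed values were 1059, 1525 and 1036 on day 1 and 1261, 1921 and 1519 on day 4, and its day 4 regimen difference was 0.83 (adjusted p = 0.0717) with no overlap, where 21.5% of all genes did not overlap.

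Vhl, whose protein recognises hydroxylated HIF alpha and sends it for destruction, went from 162, 204 and 203 to 744, 379.8 and 355 under formula and hypoxia, a rise of 1.27 (SE 0.25, adjusted p = 0.00220 in limma). In breast-fed pups it went from 157, 172 and 162 to 318, 380.4 and 327, a difference of 1.02 (adjusted p = 0.0745). Mif, a cytokine gene counted among HIF targets, went from 1092, 889 and 721 to 1599, 1479 and 1531, a rise of 0.78 (SE 0.26, adjusted p = 0.0466). The Mif call was lost in 8 of 11 alternative settings and on leaving out 5 of 6 arrays, each in turn. Set against breast-fed pups, the 4 differences were larger by 0.66 for Pfkp, 0.78 for Pgam1, 0.24 for Vhl and 0.62 for Mif, with adjusted p from 0.632 to 0.933 in limma.

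Cell type markers also moved from day 1 to day 4 of formula and hypoxia, beside the rises of Aldoa, Eno1, Pfkp, Pgam1 and Vhl. Of 6 smooth muscle markers 4 were called higher, where 6.62% of all genes were (Des at 2.04, Myh11 at 1.89, Acta2 at 1.57 and Actg2 at 1.27), and their summed signal went from 5046 to 7317 on day 1 to 10493 to 14034 on day 4. In breast-fed pups the same sum was 7279 to 8882 on day 1 and 8101 to 12806 on day 4, with 0 of 6 called, where 0.314% of all genes were. There 4 of 6 had positive differences and 2 had an unadjusted p under 0.05 in limma, against 17.0% of all genes. For the day 4 minus day 1 change of the regimen effect, all 6 were positive and 0 were called, where 0.157% of all genes were. Under formula and hypoxia, 1 of 11 enterocyte markers was called higher, Apoa1 at 0.95. Of the 2 goblet markers Muc2 was called higher at 2.61, while Tff3 was not called and did not rise. Of 7 fibroblast and matrix markers 1 was called higher and 1 lower. For exocrine pancreas 1 of 3 markers tested was called lower, and for liver 1 of 2, where 13.4% of all genes were called in either direction. Red cell markers were lower in 2 of 4 genes tested, with a sum of 16813 to 19397 on day 1 and 12124 to 13876 on day 4. The part of these shifts in the rises of the glycolytic genes was not tested.

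Against the unfed newborns, 0 of the 10 genes were called on day 1 of either regimen. In breast-fed pups 0% of all genes were called and 5.84% had an unadjusted p under 0.05, and 1 of the 10, Pdk1, had one (-0.77, SE 0.33, adjusted p = 0.766 in limma). Under formula and hypoxia 0.408% of all genes were called and 9.98% had an unadjusted p under 0.05, as did 3 of the 10: Aldoa at -1.01 (SE 0.45, adjusted p = 0.424 in limma), P4ha1 at -0.76 (SE 0.28, adjusted p = 0.343) and Eno1 at -0.53 (SE 0.23, adjusted p = 0.411). All 3 overlapped with the unfed group. The Aldoa value includes replicate 2 of formula and hypoxia day 1, which read 93.0 and had the high actin ratio. The other pups of that group lay within the unfed range of 265 to 938. All formula and hypoxia day 1 arrays were in run 1, while of the unfed arrays only replicate 1 was. The unfed and day 1 groups enter several of these comparisons, so the day 1 values of Aldoa and Eno1 that lie low here are also those from which their rise to day 4 was measured.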

How the data were processed

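RNA from the terminal ileum of 28 rat pups in 9 groups was measured on an Affymetrix rat array. The deposited values are probe set intensities on a linear scale; from the values, the authors had scaled most arrays to a common trimmed mean, and the software and summary method have no record in the labels or headers. The 8740 non-control probe sets were quantile normalised together with the controls, 8 was added and log2 taken. Probe sets above the 40th percentile of mean level (a signal of 24.0) were kept, and the brightest per gene was tested, 3185 of 4736 genes. limma 3.58.1 in R 4.3.3 fitted 1 mean per group (19 residual degrees of freedom) with trended empirical Bayes moderation and Benjamini-Hochberg adjustment; tests were two-sided and intervals are 95%. A second fit tested each of the 8740 probe sets without a filter. The number of arrays limits the precision. The code was tested on simulated data. Groups and replicate numbers came from titles and descriptions. Same-numbered arrays did not deviate together at the median (median r of -0.00 over 108 pairs, from -0.47 to 0.30). The numbers were therefore not used as pairs in the main fit. With so few arrays per group, these correlations cannot exclude that the numbers pair pups. The genes and lists were chosen with earlier results of these data known. All 10 genes are named. Of the other pathway genes, those called for the regimen mean or by day and up to 3 per other comparison with the largest change were to be named. Mif, also called for day 4 against day 1 of formula and hypoxia, was named beyond this rule. The alternatives were other scalings, pseudocounts and filters, probe set rules, the accession run, the replicate number as a block, and arrays left out. Promoters are those of RefSeq for build GRCr8.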

Additional observations from a re-analysis of the deposited data

Results flagged for a closer look

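Egln3 in the unfed group stood out because 1 of 4 pups was far from the rest: replicate 2 read 396, against 176 to 179.9 in the other 3, and the gap took 0.973 of the group's range. The threshold for singling out a pup in this way is passed by chance in about 1 group in 20.

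Probe sets outside the main test also carried signal. The dim Hk2 probe set was higher under formula and hypoxia by 0.525 over the mean of days (adjusted p = 0.0294 in the limma fit of all probe sets, where 5.81% were called), by 1.67 on day 4, and by 1.72 on day 4 against day 1 of formula and hypoxia. The mean over days fell to 0.09 within accession run 1 (adjusted p = 0.878), and its adjusted p on leaving out each array in turn ranged from 0.00785 to 0.0617. Its call was kept in 5 of 8 alternative settings and in 18 of 24 fits that each left out 1 array. From day 1 to day 4 of formula and hypoxia the second Hk1 probe set rose by 1.37, the second Eno1 probe set by 1.07 and the dim Cited2 probe set by 2.78. The Eno1 value lost its call with the deposited scaling (adjusted p = 0.0672), a common median (0.182) and the run as a term (0.0547). It kept its call in only 2 of the 6 limma fits that each left out 1 array (adjusted p from 0.0339 to 0.135). The Cited2 value lost its call with the run as a term (0.0669) and on leaving out any 1 of the 6 arrays (0.0584 to 0.116).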

How the results depend on the processing

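Results were recomputed in limma with the deposited or a common-median scaling, pseudocounts of 2 and 32, no filter, 1 test per probe set, the accession run as a term or on its own, the replicate block, and without each array. The count of called genes among the 10 for the mean over days was 1 in the main setting, 0 as scaled by the authors, 0 with a term for the run, 0 within run 1 and 1 to 2 on leaving out arrays, where 2 came without formula and hypoxia day 1 replicate 2. For day 4 against day 1 of formula and hypoxia it was 2, and 1 with a common median. In the other comparisons it was 0 in all settings run. On leaving out arrays P4ha1 ranged from -0.64 to -0.49 (adjusted p at most 0.0290) and the rises of Aldoa from 1.39 to 2.51 and of Eno1 from 0.94 to 1.21. Regimen means near 0 changed sign: Hk1 with a common median (-0.026), a term for the run (-0.037) and without both arrays with lost probe sets (-0.017), and from -0.018 to 0.080 on leaving out arrays; Hk2 with the deposited scaling (0.035), and from -0.047 to 0.035; Pdk1 with a common median (-0.020) and a term for the run (-0.0042), and from -0.066 to 0.10; Eno1 with a common median (-0.045); and Cited2 within run 1 (-0.23). The cause was not tested. With the replicate block, P4ha1 gave -0.56 (adjusted p = 0.0102), Aldoa 2.12 (0.0101) and Eno1 1.06 (0.0106), and it ended the call of Mif (0.0552) alone among the results named in the text; day 2 then had 29 genes called and not 47, and day 1 had 5 and not 9.

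Among all genes, the 364 called for the mean over days were 203 with a term for the run and 173 in run 1 alone, and their share called higher was 40.9%, 27.2% with a common median and 45.7% with the deposited scaling. For day 4 against day 1 the 427 called under formula and hypoxia were 151 without day 4 replicate 1 and 275 without day 1 replicate 1, with 49.4%, 37.0% and 59.1% higher in the main, common-median and deposited scalings. The 10 called in breast-fed pups were 149 with the deposited scaling, which put the median of all genes at 0.32 and not 0.02.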
